A study of Mus musculus with 7 samples.

Results

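The 10 genes described here, Scg2, Scg3, Scg5, Chga, Chgb, Cck, Pcsk1, Cpe, Vgf and Cbln2, encode proteins of secretory granules, peptide precursors and a related secreted synaptic protein. They were chosen by gene symbol in the platform annotation and are 10 of 19505 named genes, each with 1 probe set. Levels on these same arrays were already known when the genes were picked, so all values below are descriptions. The series asked how the form of the heart transcription factor Mef2c shapes the direct conversion of mouse embryonic fibroblasts (MEFs) into heart-like muscle cells, and what part the acetyltransferase p300, encoded by Ep300, plays in it. Gene expression was measured on 7 single-colour Clariom S mouse arrays, 1 for each group, and is given as log2 signal.

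The MEF array came from fibroblasts without treatment, with neither virus nor siRNA, and no time of harvest is given for it. The other 6 arrays came from MEFs infected with retroviruses for Gata4 and Tbx5 (GT) plus a form of Mef2c and collected at 1 week. GT/M1, GT/M2 and GT/M6 received isoforms 1, 2 and 6 of Mef2c, and GT/M2TAD received isoform 2 carrying the MyoD transactivation domain as a fusion. The arrays called siCtrl and siEp300 carried control siRNA or siRNA against Ep300 in addition. Titles place them with GT/M2, but the source names and the characteristics place them with GT/M2TAD, so they are called only by their siRNA. No array carried virus without the factors. In differences from MEF, the factors, infection and culture time therefore cannot be told apart. The cells were bulk cultures, so fewer cells of a type and less RNA per cell cannot be told apart either. There are no replicates, so no difference below has a replicate check, a standard error or a p-value.

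Dense-core granules store peptide hormones in neurons and endocrine cells, and atrial heart muscle cells keep natriuretic peptide in granules of the same general kind. Granins such as chromogranins and secretogranins condense the cargo. Prohormone convertases cut the precursors at paired basic residues, and carboxypeptidases trim the ends that are exposed. Release then needs Rab GTPases, priming factors and membrane fusion proteins. Cerebellins are secreted relatives of complement C1q that bridge neurexins and glutamate receptors at synapses.

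Promoter sequences were available from RefSeq (build GRCm38.p6) for 7 of the 10 genes. Several granin promoters are textbook examples of a cAMP response element close to the gene start. Scg2 and Cck are shown first because they were the granule and hormone genes with the widest ranges on these arrays. The 250 bases before the start are printed 5′ to 3′ on the gene's strand, with matches in capitals to the full cAMP response element, TGACGTCA, and to AGATAA, a motif of the GATA factors. The Scg2 stretch is chr1:79440027-79440276 on the minus strand. The Cck stretch is chr9:121495695-121495944 on the minus strand.
Scg2: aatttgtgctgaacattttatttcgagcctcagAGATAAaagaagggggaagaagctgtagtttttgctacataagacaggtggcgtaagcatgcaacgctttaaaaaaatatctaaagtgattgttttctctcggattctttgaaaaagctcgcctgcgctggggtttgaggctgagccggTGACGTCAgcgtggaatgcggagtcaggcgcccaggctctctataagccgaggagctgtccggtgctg
Cck: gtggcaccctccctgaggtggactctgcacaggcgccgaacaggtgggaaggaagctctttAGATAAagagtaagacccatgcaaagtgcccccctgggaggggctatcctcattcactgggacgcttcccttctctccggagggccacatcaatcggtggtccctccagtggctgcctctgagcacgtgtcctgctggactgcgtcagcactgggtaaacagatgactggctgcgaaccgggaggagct

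Relative to the gene start, the full cAMP response element began at -68 in Scg2, -72 in Chgb and -78 in Pcsk1. Windows of 40 bases around the latter matches are shown because both genes carry the same element as Scg2 but, as described below, had no signal above background on any array. The Chgb window is chr2:132781554-132781593 and the Pcsk1 window chr13:75089763-75089802, both on the plus strand.
Chgb: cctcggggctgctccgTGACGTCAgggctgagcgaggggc
Pcsk1: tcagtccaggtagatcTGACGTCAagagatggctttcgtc

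Of 32851 mouse promoters of the same length, 508 (1.55%) held TGACGTCA on either strand, as did 3 of the 7 members' promoters. AGATAA was found in 2 of the 7, Scg2 and Cck, and in 9.99% of all promoters. An E-box, CANNTG, was found in 5 of the 7 and in 66.2% of all promoters. A MEF2-like pattern, which leaves its 4 central bases free and so is looser than the MEF2 consensus, was in 0 of the 7 and in 3.20% of all promoters. The T-box core, GGTGTGA, was in 0 of the 7 and in 3.33% of all promoters. The matches in capitals did not overlap one another. A match describes letters in this window and does not show that a factor binds.

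The arrays were first checked for depth of signal and for their labels. Median signals over named genes lay between 5.38 and 5.71. The 95th percentile of 5222 negative-control probes lay between 8.43 and 9.33, and is called the background level below. Between 23.7% and 29.6% of named genes lay above it on an array. Tbx5 was 5.72 on MEF and 14.82 to 16.23 on the 6 infected arrays, and Mef2c 8.24 against 18.32 to 18.87. Gata4 stayed between 3.57 and 5.09 on every array, and where its probes lie relative to the viral insert is not known. Ep300 was 9.47 on siEp300 and 9.90 on siCtrl. Of 9 measured fibroblast markers, 6 reached the background level on MEF, among them Vim and Col1a1. The number was also 6 on GT/M1, GT/M2 and GT/M2TAD, and 7 on GT/M6, siCtrl and siEp300, so it does not set MEF apart. Of 10 cardiac muscle markers, 1 reached it on MEF, 8 on each array without siRNA that carried the factors, and 7 on siCtrl and on siEp300.

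Of the 10 genes, 4 had a signal above the background level on at least 1 array: Scg2, Cck, Cbln2 and Cpe. The other 6 lay below it on all 7 arrays, as did 66.0% of all named genes. They were thus not well above background on any array. The name of the group holds at transcript level for a granin, a peptide hormone, a processing enzyme and a cerebellin, and not for the chromogranins or the convertase Pcsk1.

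**Figure D1:**
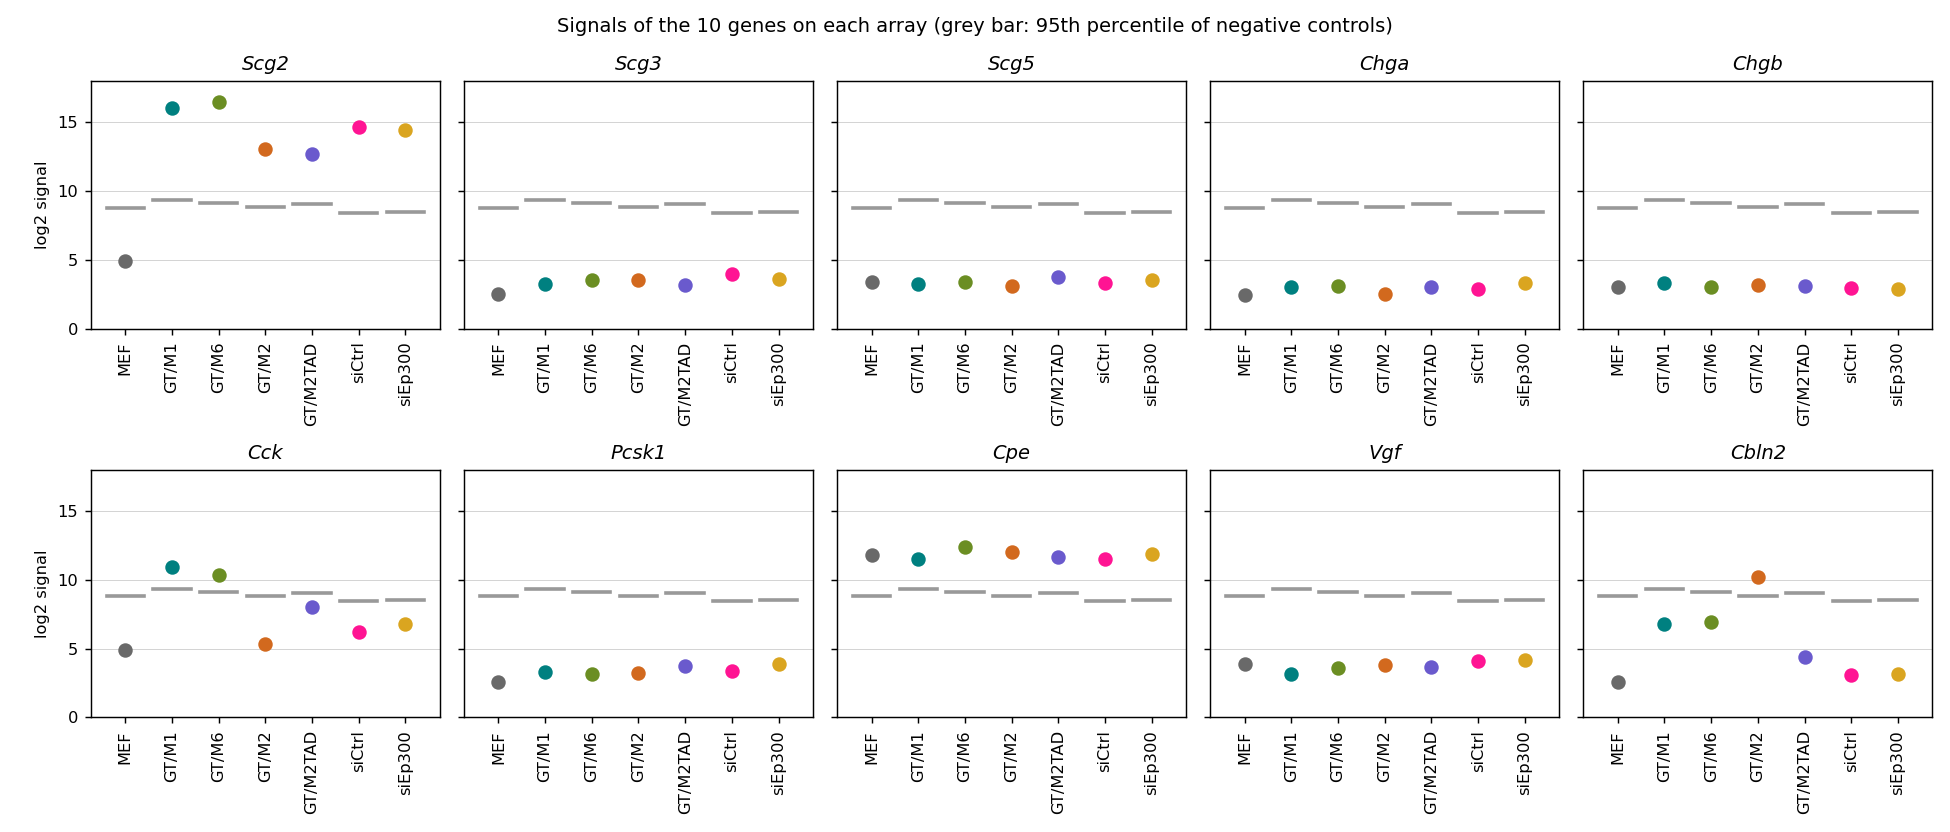
Signals of the 10 genes on the 7 arrays, 1 point per array, in log2 units on the vertical axis; the grey bars mark the background level of each array, the 95th percentile of its negative controls. Scg2 lies above the bar on 6 arrays, Cck on GT/M1 and GT/M6, Cbln2 on GT/M2 and Cpe on all 7, while the other 6 genes lie between 2.43 and 4.16.

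Scg2 encodes secretogranin II, a granin that is also the precursor of the peptide secretoneurin. Its signal was 4.90 on MEF, 16.07 on GT/M1, 16.44 on GT/M6, 13.03 on GT/M2, 12.73 on GT/M2TAD, 14.65 on siCtrl and 14.45 on siEp300. All 6 infected arrays lay far above background and MEF lay below it, with GT/M1 and GT/M6 the highest. The differences from MEF were 11.17, 11.55, 8.13, 7.83, 9.75 and 9.55 in that order. Because the MEF signal is below background, the true size is uncertain. Raising MEF to its background level of 8.81 gave differences of at least 7.26, 7.64, 4.22, 3.92, 5.84 and 5.64.

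Cck encodes cholecystokinin, a peptide hormone of gut and brain. Its signal was 4.93 on MEF, 10.90 on GT/M1, 10.39 on GT/M6, 5.36 on GT/M2, 8.01 on GT/M2TAD, 6.25 on siCtrl and 6.80 on siEp300. Only GT/M1 and GT/M6 exceeded background, which was 9.33 and 9.14 there. The differences from MEF on these 2 arrays were 5.97 and 5.46, or at least 2.09 and 1.58 with MEF at its background level. The other 5 arrays lay below background, so little can be said of their order.

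Cbln2 encodes cerebellin 2. Its signal was 2.59 on MEF, 6.79 on GT/M1, 6.90 on GT/M6, 10.23 on GT/M2, 4.37 on GT/M2TAD, 3.08 on siCtrl and 3.15 on siEp300. GT/M2 was the only array above background, which was 8.82 there. Its difference from MEF was 7.65, or at least 1.43 with MEF at its background level. On that array Cck was below background, whereas on GT/M1 and GT/M6 it was above.

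Cpe encodes carboxypeptidase E, which removes basic residues from cut prohormones. Its signal was 11.79 on MEF, 11.52 on GT/M1, 12.39 on GT/M6, 12.00 on GT/M2, 11.63 on GT/M2TAD, 11.53 on siCtrl and 11.85 on siEp300. All 7 arrays lay above background within a range of 0.87. Untreated fibroblasts were inside that range, and 32.9% of named genes had a smaller one. For comparison the ranges of Scg2, Cbln2 and Cck were 11.55, 7.65 and 5.97, and 99.1% of named genes had a smaller range than Cck.

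The members below background comprised other granins and processing factors. Chga and Chgb encode chromogranins A and B, Scg3 encodes secretogranin III, and Vgf encodes a neuropeptide precursor. Scg5 encodes 7B2, a chaperone of the convertase PC2, and Pcsk1 encodes the convertase PC1/3. Their signals lay between 2.43 and 4.16 over all 7 arrays. The lowest, median and highest signals were 2.43, 3.03 and 3.30 for Chga and 2.88, 3.02 and 3.29 for Chgb. They were 3.12, 3.39 and 3.77 for Scg5, 2.56, 3.28 and 3.86 for Pcsk1, and 3.19, 3.85 and 4.16 for Vgf. Scg3 had its lowest signal, 2.51, on MEF and a median of 3.56. Ranges ran from 0.41 for Chgb to 1.49 for Scg3, against a median range of 1.10 over all named genes. Signals this low give no order among arrays.

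Since no test was possible, differences were sorted by size. The term 2-fold apart is used where log2 signals differ by 1 or more and the higher one reaches a floor, set at the median over named genes of its array. The 6 dim members never reached the floor on any array and could not be counted, as was so for 43.8% of all named genes. The 4 others reached it on at least 1 array. The counts below therefore concern those 4, and since the members were picked with these contrasts known, nothing is read from the counts against the shares of all genes printed beside them.

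Each infected array was set against MEF. Scg2 was higher on all 6, and these comparisons share the MEF array. On GT/M1 and GT/M6, Scg2, Cck and Cbln2 were higher, 3 of 10, beside 12.5% and 13.0% of all genes. On GT/M2 they were Scg2 and Cbln2, 2 of 10 beside 13.6%. On GT/M2TAD, siCtrl and siEp300 they were Scg2 and Cck, 2 of 10 beside 14.0%, 10.9% and 13.4%. Both Cck signals lay below background in the latter 3, where its differences were 3.08, 1.32 and 1.87, and counted only at the background level as floor the number was 1 of 10 in each. Cbln2 was likewise below background on both arrays for GT/M1 and GT/M6, with differences of 4.20 and 4.32. None of the 10 was 2-fold lower on any of the 6, beside 9.52%, 8.34%, 8.79%, 9.50%, 10.9% and 9.29% of all genes for GT/M1, GT/M2, GT/M6, GT/M2TAD, siCtrl and siEp300. The median difference over the 10 members was 0.67, 0.32, 0.63, 0.65, 0.49 and 0.72 in that order, beside 0.089, 0.072, 0.077, 0.091, 0.012 and 0.12 over all genes. That median rests on members below background.

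Pairs of isoform arrays were then set side by side, which bears on how expression varies with the Mef2c isoform. Scg2 and Cck were lower and Cbln2 higher on GT/M2 than on GT/M1. Scg2 was at -3.04, an 8.22-fold difference with both signals above background. Cck was at -5.54, with GT/M2 below background, or -2.07 with GT/M2 at its background level. Cbln2 was at 3.45 with GT/M1 below background, or 0.90 with GT/M1 at its background level. The counts were 1 of 10 higher beside 1.90% of all genes and 2 of 10 lower beside 1.39%.

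GT/M6 against GT/M2 gave the same 3 genes with the opposite signs, and shares the GT/M2 array with the comparison before. Scg2 was 3.41 higher on GT/M6, a 10.7-fold difference, and Cck 5.03 higher, or 1.56 with GT/M2 at its background level. Cbln2 was at -3.33, or -1.10 with GT/M6 at its background level. The counts were 2 of 10 higher beside 1.85% and 1 of 10 lower beside 1.71%. GT/M6 and GT/M1 lay close for these genes, with Scg2 at 0.38, Cck at -0.51 and Cbln2 at 0.12, and 0 of 10 were 2-fold apart in either direction beside 0.646% higher and 0.292% lower. The largest difference there was that of Cpe, at 0.87.

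Markers of other cells differed between these arrays as well. Of 9 measured fibroblast markers, 3 were 2-fold lower and 0 higher on GT/M2 than on GT/M1, with a list median of -0.11, and 3 were 2-fold higher and 0 lower on GT/M6 than on GT/M2, with a list median of 0.97. Col1a2, a collagen gene above background on all 7 arrays, was 12.12 on GT/M1, 13.01 on GT/M6 and 10.50 on GT/M2. The 7 measured macrophage markers were all below background on all 7 arrays. Of these, 2 were 2-fold lower on GT/M2 than on GT/M1, with a list median of -0.55, and 1 was 2-fold higher on GT/M6 than on GT/M2, with a list median of -0.081. That 1 was Lyz2, a lysozyme gene, at 8.76 on GT/M1, 8.24 on GT/M6 and 6.16 on GT/M2. The log2 of the list's summed signal was 9.23, 8.66 and 7.42 on these arrays and 7.22 to 8.02 on the other 4. Csf1r, Adgre1, Ptprc and Aif1 had lower signals on GT/M6 than on GT/M2 and did not exceed 5.10 on any array. At this level such differences give no order among arrays. The part of fibroblast and macrophage signals in the Scg2 and Cck differences was not tested.

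**Figure D2:**
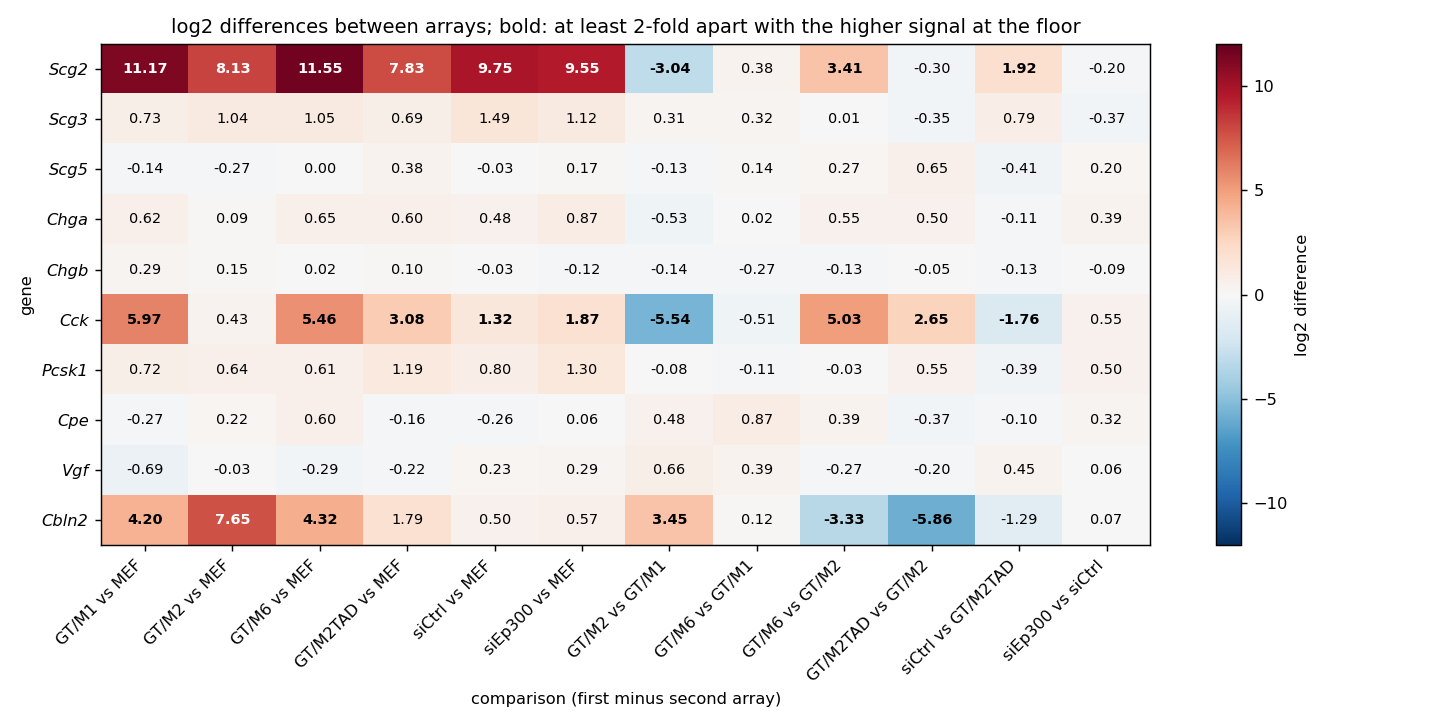
Log2 differences of the 10 genes (rows) in the 12 comparisons (columns), the first array minus the second, with the value in each cell and the colour scale in log2 units; bold cells were at least 2-fold apart with the higher signal at the floor. Scg2, Cck and Cbln2 carry every bold cell, and siEp300 against siCtrl and GT/M6 against GT/M1 have none.

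GT/M2TAD was set against GT/M2 to ask how the fused domain goes with expression. Cbln2 was lower on GT/M2TAD, at -5.86. The GT/M2TAD signal was below background, and the difference was -1.19 with that array at its background level. Cck was 2.65 higher with both signals below background. Scg2 was at -0.30 and Cpe at -0.37, both under 2-fold. The counts were 1 of 10 higher beside 2.96% of all genes and 1 of 10 lower beside 3.33%, and 0 of 10 higher with the background level as floor.

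The siRNA arrays are placed beside the arrays without siRNA because their labels disagree on the Mef2c form. Differences and counts were taken against GT/M2TAD only, and so follow the source names and characteristics, not the titles. On siCtrl, Scg2 was 14.65, above both GT/M2 and GT/M2TAD, and Cbln2 was 3.08, below both. Cbln2 was 10.23 on GT/M2, and Cck was 5.36 on GT/M2 and 6.25 on siCtrl, both below background. Against GT/M2TAD, Scg2 was 1.92 higher on siCtrl, a 3.78-fold difference with both signals above background. Cck was at -1.76 and Cbln2 at -1.29 with all signals below background. The counts were 1 of 10 higher beside 3.04% and 1 of 10 lower beside 6.38%. Markers of fibroblasts and of cardiac muscle also differed between siCtrl and GT/M2TAD. Of the 9 fibroblast markers, 6 were 2-fold higher and 1 lower on siCtrl, with a list median of 2.25. Col1a2 was 15.26 against 11.36 and Postn, a matrix gene of activated fibroblasts, 15.25 against 10.17, while Thy1, a surface marker, was 12.89 against 15.15. Of the 10 cardiac muscle markers, 0 were 2-fold higher and 6 lower, with a list median of -1.29. Among them the atrial myosin light chain gene Myl7 was at -2.49 and the calcium channel gene Ryr2 at -3.10, the latter below background on siCtrl. Tbx5, 1 of the factors supplied by virus, was 14.83 on siCtrl and 16.14 on GT/M2TAD. The part of these marker and Tbx5 differences in the Scg2 value was not tested.

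Between siEp300 and siCtrl, 0 of 10 members were 2-fold apart, beside 1.93% of all genes higher and 0.390% lower. Ep300 itself was 9.47 on siEp300 and 9.90 on siCtrl, also under 2-fold apart. The values therefore do not show how the members go with a larger loss of Ep300. Scg2 was at -0.20, Cck at 0.55, Cpe at 0.32 and Cbln2 at 0.07. The median over the 10 was 0.14, the same as the 0.14 over all genes.

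Genes with the most similar course over the 7 arrays were sought for Scg2, Cck and Cbln2. The measure was the mean absolute difference in log2 signal after centring each gene on its own mean, over 6627 genes above background on at least 1 array. For Scg2 the nearest were the serpin gene Serpina3n at 0.93, the cardiac troponin T gene Tnnt2 at 1.01 and the sarcoplasmic calcium-binding gene Casq2 at 1.03. All 3 were low on MEF and high on every infected array. Unlike Scg2, Tnnt2 and Casq2 had signals on GT/M2TAD (17.67 and 14.34) that were at or above those on GT/M1 (17.40 and 12.96).

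For Cck the nearest was Sln at 0.35, the gene of sarcolipin, an inhibitor of the muscle calcium pump. Sln was 13.65 on GT/M1, 13.09 on GT/M6, 7.67 on GT/M2, 10.24 on GT/M2TAD, 8.14 on siCtrl, 8.23 on siEp300 and 7.00 on MEF. GT/M1 and GT/M6 were its highest arrays, as for Cck, and its listed order over all 7 was also that of Cck. The other 5 signals of Cck lay below background, as did those of Sln on MEF, GT/M2, siCtrl and siEp300. Little can therefore be said of the order among those arrays. The next were the phosphatase gene Acp6 at 0.83 and the atrial connexin gene Gja5 at 0.91. Gja5 was 8.97 on GT/M1 and 9.70 on GT/M6, and between 5.18 and 6.36 on the other 5 arrays. It exceeded background on GT/M6 only.

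For Cbln2 the nearest were Ston2, an endocytic adaptor gene, at 0.65, Rab11fip1, which encodes a recycling endosome protein, at 0.73, and Sphkap at 0.79. Ston2 was 9.42 on GT/M2, 8.41 on GT/M1 and 8.22 on GT/M6, and 3.79 to 6.17 on the other 4 arrays. Each of the 3 spans a smaller range than Cbln2 and shares its highest array, GT/M2. Sphkap was 8.90 there, close to its 8.82 on GT/M6 and 8.76 on GT/M1, so it hardly sets GT/M2 apart. Ston2 and Sphkap exceeded background on GT/M2 only. The scale is a description over 7 arrays that share the MEF array and a normalization.

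**Figure D3:**
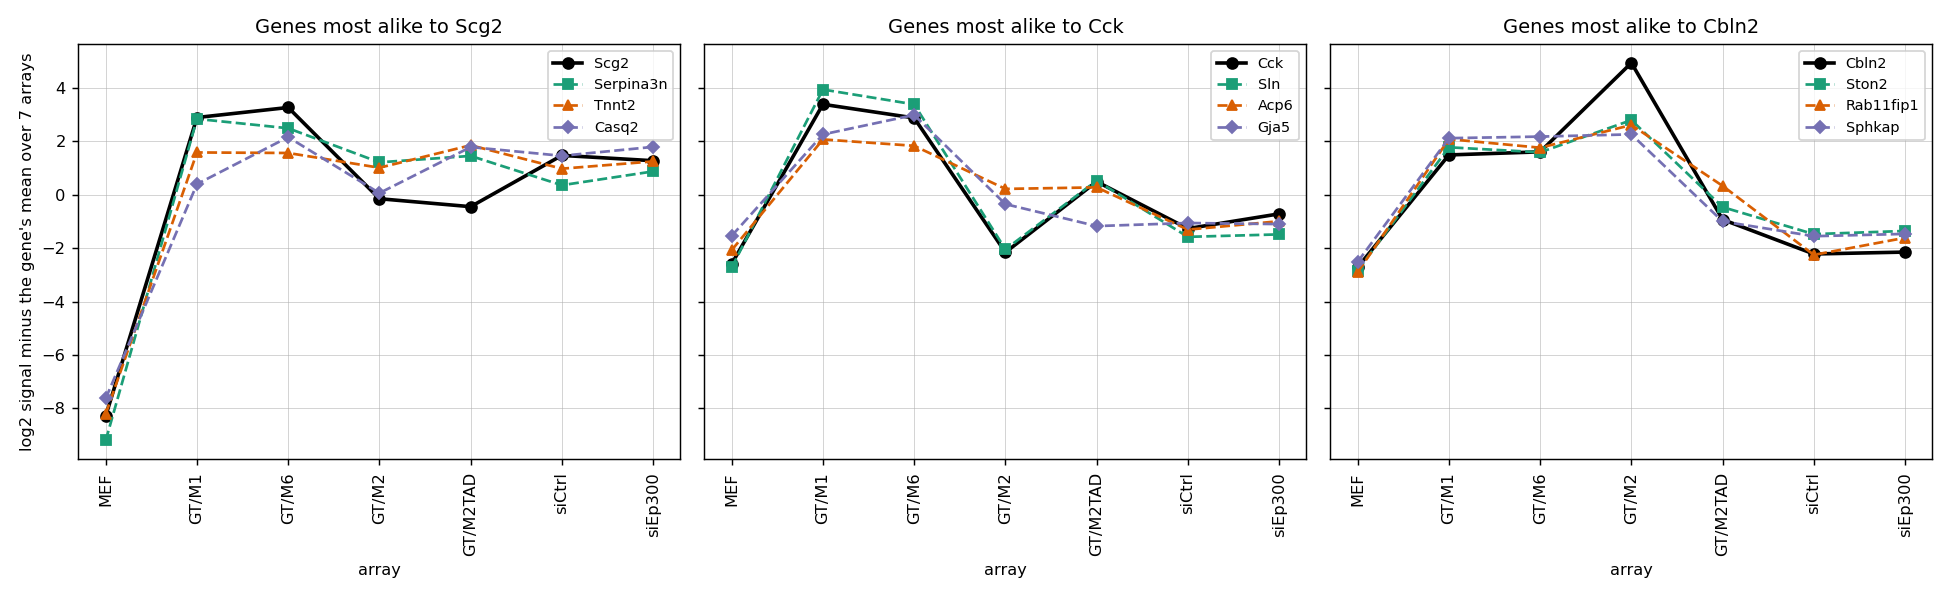
Log2 signal minus each gene's own mean over the 7 arrays (vertical axis) by array (horizontal axis), for Scg2, Cck and Cbln2 in black and the 3 genes nearest to each in colour. Sln follows Cck within a mean of 0.35, whereas the genes nearest to Scg2 and Cbln2 differ from them by 0.65 to 1.03.

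Of 18 listed genes that process peptide precursors, 16 were measured, of which 10 exceeded background on at least 1 array and 6 on none. Set against MEF, GT/M1 and GT/M6 each had 9 of the 16 2-fold higher, beside 12.5% and 13.0% of all genes. GT/M2 and siEp300 each had 8 of 16, beside 13.6% and 13.4%, and GT/M2TAD and siCtrl each had 7 of 16, beside 14.0% and 10.9%. None was 2-fold lower on the other 5 arrays than siEp300, and Mme, a peptide-degrading neprilysin below background on both arrays, was at -1.20 on siEp300. The list medians were 1.23 for GT/M1, 0.96 for GT/M2, 1.09 for GT/M6, 0.53 for GT/M2TAD, 0.51 for siCtrl and 1.16 for siEp300. The count on GT/M6 fell to 6 with each of the 3 other scalings between arrays, where Qpctl, Ctsh and Mme dropped under 2-fold. With the background level as floor, the count on GT/M1 was 5 in place of 9, since Cpz, Qpct, Ctsh and Mme were below background on both arrays, and the counts on the other 5 arrays were 5 to 7.

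Pam encodes the monooxygenase that gives many peptides, cholecystokinin among them, their amidated end. Its signal was 10.63 on MEF, 14.91 on GT/M1, 14.99 on GT/M6, 14.15 on GT/M2, 15.54 on GT/M2TAD, 14.86 on siCtrl and 15.20 on siEp300. Every infected array was at least 3.52 above MEF, with all signals above background. Qpct, a glutaminyl cyclase that caps peptide ends, was 4.05 on MEF and 8.25 to 9.87 on the others, above background on 4 of them. Ctsl, the protease cathepsin L, was 11.66 on MEF and 13.94 to 15.39 elsewhere, and the carboxypeptidase gene Cpd 11.81 against 13.16 to 13.96. Pcsk5, another convertase gene, was 6.66 on MEF and 7.52 on GT/M2TAD, both below background, and 8.95 to 9.64 on the other 5. Between GT/M2TAD and GT/M2 it was at -2.13, with GT/M2TAD below background. Thus Pam and Cpd were above background on all 7 arrays and Pcsk1 on none.

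Among genes for granule formation and release, more were 2-fold higher than lower against MEF on each infected array. Of 52 listed, 49 were measured and 16 exceeded background on at least 1 array. Against MEF, GT/M1 had 18 that were 2-fold higher and 2 lower, GT/M2 had 13 and 2, GT/M6 and GT/M2TAD each had 17 and 2, and the siRNA arrays each had 13 and 3. Of all genes, 10.9% to 14.0% were 2-fold higher in these comparisons and 8.34% to 10.9% lower. With the background level as floor, GT/M1, GT/M2, GT/M6 and siCtrl each had 8 higher, siEp300 9 and GT/M2TAD 10. Each of the 6 had 1 lower. The genes no longer counted were below background on both arrays compared, and 33 of the 49 genes never exceeded background. On GT/M1 the higher count was 13 after median centring. The list medians lay between 0.39 for GT/M6 and 0.51 for siEp300.

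Rab3b encodes a vesicle GTPase. Its signal was 4.38 on MEF, 12.13 on GT/M1, 12.46 on GT/M6, 10.91 on GT/M2, 10.86 on GT/M2TAD, 5.97 on siCtrl and 6.60 on siEp300. The siRNA arrays were below background and the 4 arrays with the factors and no siRNA above it. Cadps, a priming factor of dense-core granules, was 10.83 on GT/M1, 11.02 on GT/M6, 10.03 on GT/M2, 8.84 on GT/M2TAD, 5.73 on siCtrl, 5.81 on siEp300 and 5.14 on MEF. It exceeded background on the first 3 arrays. Against GT/M2TAD, siCtrl was at -4.89 for Rab3b and -3.11 for Cadps, whereas Scg2 was 1.92 higher there. In that comparison Rab3b was below background on siCtrl and Cadps on both arrays.

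Ptprn encodes IA-2, a membrane protein of dense-core granules. It was 13.21 on MEF, 8.44 on GT/M1, 8.95 on GT/M6, 7.14 on GT/M2, 9.48 on GT/M2TAD, 10.71 on siCtrl and 9.77 on siEp300. MEF was the highest array. Ptprn was below background on GT/M1, GT/M6 and GT/M2, so the sizes of those differences are not known. On GT/M2TAD, siCtrl and siEp300, where it was above background, the differences from MEF were -3.73, -2.49 and -3.44. Of 12 neuron markers, 3 exceeded background on MEF and 0 or 1 on the other arrays. Stmn2 was 11.75 on MEF and 5.57 to 7.99 elsewhere, whereas Tubb3 was 9.75 on MEF and 9.92 on GT/M2TAD. On GT/M1, 2 of the 12, Nefm and Syt1, were 2-fold higher than on MEF and 1, Stmn2, lower, with a list median of 0.0094. Nefm and Syt1 were below background in both cultures. For GT/M2 the numbers higher and lower were 0 and 2, for GT/M6 1 and 1, and for GT/M2TAD 0 and 1. For siCtrl they were 0 and 4, and for siEp300 0 and 3. List medians in these 5 comparisons ran from -0.47 for siCtrl to -0.10 for GT/M2TAD. The log2 of the list's summed signal was 12.33 on MEF and 9.38 to 10.84 elsewhere. Snap25, Syp, Elavl3 and Elavl4 did not exceed 5.45 on any array. The part of such signals in the Ptprn difference was not tested.

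**Figure D4:**
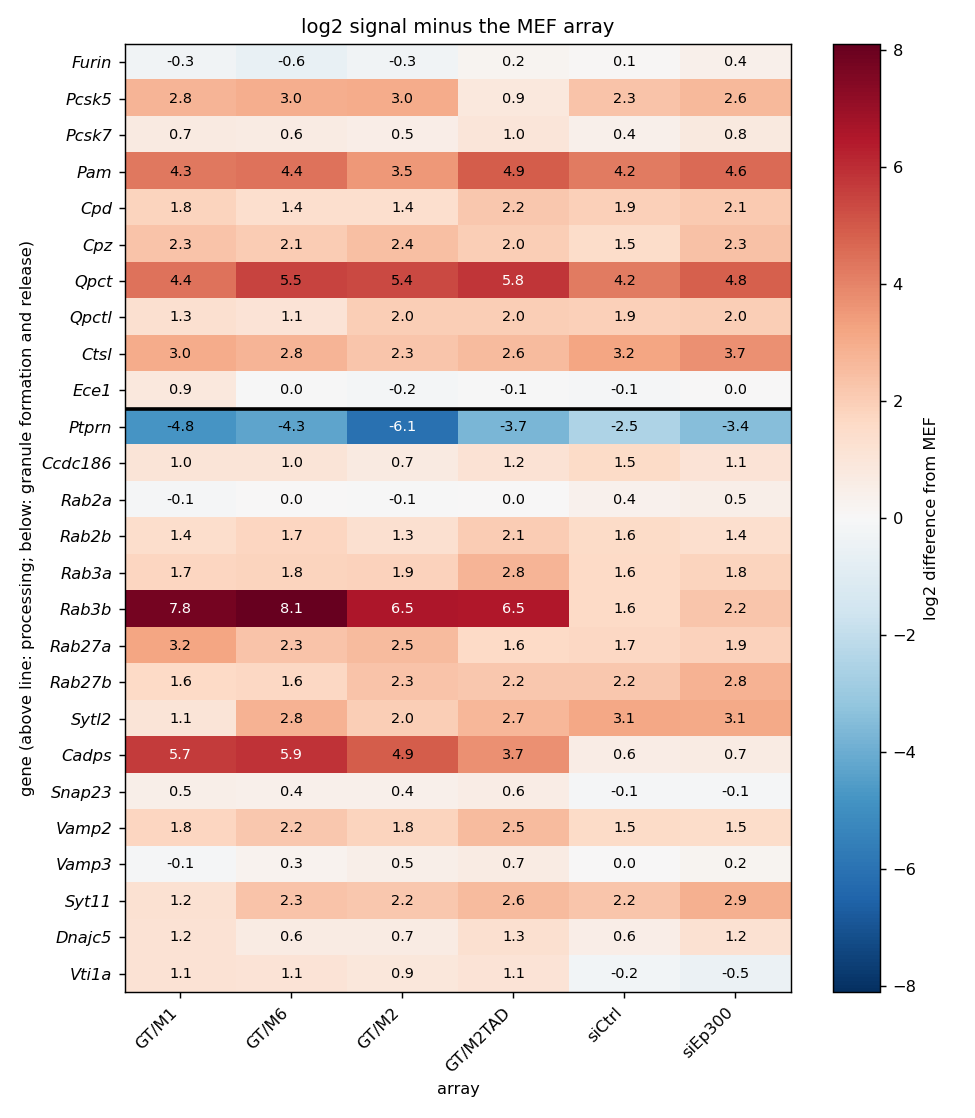
Log2 signal minus that of the MEF array for the processing genes (above the line) and the granule formation and release genes (below it) that exceeded background on at least 1 array, with the value in each cell; columns are the 6 infected arrays. Pam and Qpct are at least 3.52 above MEF on all 6, Ptprn lies below MEF on all 6, and Rab3b and Cadps are lower on the siRNA arrays than on the others.

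Other peptide precursors were mostly below background. Of 61 listed, 57 were measured and 6 exceeded background on at least 1 array. Against MEF, GT/M1 and GT/M6 each had 2 that were 2-fold higher and 2 lower, GT/M2 had 3 and 3, GT/M2TAD had 4 and 2, and the siRNA arrays each had 4 and 1, beside the same shares of all genes. With the background level as floor, GT/M1, GT/M2 and GT/M6 each had 1 higher and 2 lower, GT/M2TAD 2 and 2, siCtrl 1 and 1, and siEp300 3 and 1. Nppa, the atrial natriuretic peptide gene, was 5.09 on MEF and 14.88 to 18.52 on the infected arrays, highest on GT/M2TAD, where Scg2 was lowest of the 6. Adm, which encodes the vasodilator adrenomedullin, was 11.73 on MEF and 6.96 to 8.97 elsewhere. Nucb2, the nesfatin precursor gene, was 9.72 on MEF, 7.68 to 8.20 on the 4 arrays with factors and no siRNA, and 10.13 and 10.67 on siCtrl and siEp300. On those 4 arrays both Adm and Nucb2 were below background, so the sizes of their differences from MEF are not known.

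Between siEp300 and siCtrl, 2 of the 57 precursors were 2-fold higher and 0 lower, beside 1.93% and 0.390% of all genes. Rln3, the relaxin 3 gene, was 2.17 higher, at 9.63 against 7.45, and Nppb, the B-type natriuretic peptide gene, 2.13 higher, at 9.32 against 7.19. In both cases the siEp300 signal exceeded background and the siCtrl signal did not, so the true sizes are uncertain. The background level on siCtrl was 8.43, and set against that level Nppb would be under 2-fold apart. No processing or release gene was 2-fold apart between these arrays.

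Receptors and binding partners were few. Of 4 listed receptors of the members' peptides, 3 were measured. Cckbr, a cholecystokinin receptor, was between 2.97 and 3.96, below background on every array. C1qbp, a mitochondrial protein that also binds a Vgf peptide, was above background on all 7, between 13.09 and 14.34. C3ar1, a complement receptor that also binds a Vgf peptide, was 9.51 on GT/M2TAD, above background, and 4.46 to 5.73 on the other 6. Of 8 measured cerebellins and partners, only the receptor gene Neo1 exceeded background, at 12.52 on MEF and 13.62 to 14.01 elsewhere. Of 10 measured regulators of neural and endocrine genes, Rest, the repressor of many neuronal genes, was 11.29 to 12.02 on all 7 arrays and under 2-fold apart in every comparison. Nr4a1, an early-response nuclear receptor, was 9.90 on GT/M2TAD, 10.30 on siCtrl and 10.88 on siEp300, and 6.81 to 7.60 on the other 4. Markers of chromaffin and endocrine cells (8 measured) and of glia (5 measured) exceeded background on no array. The log2 of their summed signals was 6.66 to 7.39 and 6.72 to 8.52.

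The balance of higher and lower genes over all genes depended on scaling, which touches the shares printed above. Of genes 2-fold apart from MEF, the higher share was 56.8% for GT/M1, 61.9% for GT/M2, 59.7% for GT/M6, 59.6% for GT/M2TAD and 59.1% for siEp300. After median centring these were 41.9%, 46.8%, 43.1%, 47.5% and 47.8%, and quantile normalization gave 50.0% for GT/M2 and 49.3% for GT/M6. For GT/M2 against GT/M1, 57.7% were higher, against 46.5% with quantile normalization and 45.9% with level-dependent centring. For siCtrl against GT/M2TAD the share was 32.2%, and 49.4%, 51.7% and 56.0% with median centring, quantile normalization and level-dependent centring. For siEp300 against siCtrl it was 83.2%, and 58.0%, 48.9% and 51.3% with the same. Median centring moved the median difference over all genes from MEF to -0.22 for GT/M1, -0.25 for GT/M2 and for GT/M6, -0.17 for GT/M2TAD and -0.11 for siEp300. The members' counts were the same under these 3 scalings.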

How the data were processed

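Arrays were Affymetrix Clariom S, with 100 ng RNA of integrity number above 7 per the labels' protocols. The deposited values are log2 signals, made by the authors with Affymetrix Expression Console 1.4 per the submitters' processing notes and SST-RMA per the series text; its settings are not given in the sources used here. Arrays normalized together may no longer show a difference that most genes have in common. Of 28846 probe sets, 19572 had 1 gene symbol, 0 several and 9274 none. They gave 19505 genes, using for 55 genes the set with the highest mean. Differences, counts and distances were computed with pandas 2.3.3 and statsmodels 0.14.6, and the counting was tested on simulated data. With 1 array per group no test was possible, and the number of arrays limits precision.

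The members and gene lists were chosen with earlier results of these data known. Named were all members, list genes among the 4 largest differences of those 2-fold apart in a comparison, any gene of a list of 5 or fewer, and the 3 nearest genes per member that ranged over at least 2. Macrophage, neuron, fibroblast and cardiac marker genes, Rest, Nr4a1, Cpd, Col1a2, Postn, Nucb2 and Neo1 were singled out after their values were seen where that rule did not name them. Alternatives were median centring, quantile normalization, level-dependent centring, no floor, the background level as floor, and the mean of probe sets.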

Additional observations from a re-analysis of the deposited data

How the results depend on the processing

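Median centring, quantile normalization, level-dependent centring and the mean of probe sets left each of the 24 counts of members unchanged. Each of the 120 member differences kept its side of the 2-fold rule under them. Whether a difference kept its sign was checked only for those 2-fold apart. No counted difference changed sign under any of the 6 alternatives. With no floor, the members higher than MEF numbered 4 on GT/M2TAD and 4 on siEp300 in place of 2, 3 on GT/M2 and 3 on siCtrl in place of 2, and 4 on GT/M6 in place of 3, and those lower on siCtrl than on GT/M2TAD 2 in place of 1; the additions, Scg3, Pcsk1 and Cbln2, were below background. With the background level as floor, the members higher than MEF were 1 on each of GT/M2TAD, siCtrl and siEp300, those higher on GT/M2TAD than on GT/M2 were 0, and those lower on siCtrl than on GT/M2TAD were 0, since Cck was below background there; Cbln2 was also lost for GT/M1 and GT/M6. Signal over background thus limits Cck and Cbln2 more than Scg2 and Cpe. Over all genes, counts moved by more than 1.5 times with the background level as floor in each of the 12 comparisons. Against MEF, GT/M1 then had 1273 higher and 1253 lower genes (2437 and 1856 with the floor of the report), GT/M2 1596 and 1069 (2643 and 1626), GT/M6 1437 and 1172 (2545 and 1715), GT/M2TAD 1629 and 1248 (2729 and 1853), siCtrl 1417 and 1381 (2127 and 2118), and siEp300 1716 and 1199 (2623 and 1812). They were 192 and 124 for GT/M2 against GT/M1 (370 and 271), 57 and 16 for GT/M6 against GT/M1 (126 and 57), 175 and 179 for GT/M6 against GT/M2 (360 and 334), 384 and 362 for GT/M2TAD against GT/M2 (578 and 650), 349 and 599 for siCtrl against GT/M2TAD (592 and 1245), and 117 and 6 for siEp300 against siCtrl (377 and 76). With no floor they were 476 and 411 for GT/M2 against GT/M1, 192 and 163 for GT/M6 against GT/M1, and 788 and 290 for siEp300 against siCtrl. Median centring, quantile normalization and level-dependent centring gave 808 and 826, 814 and 759, and 895 and 704 for siCtrl against GT/M2TAD, and 195 and 141, 161 and 168, and 164 and 156 for siEp300 against siCtrl. No paired analysis was possible because each group has 1 array.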
